A study of Mus musculus with 19 samples.

Results

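The genes examined here are 39 mouse genes of fatty acid uptake, storage and oxidation, chosen by name, among the 27425 gene names of an Agilent whole mouse genome array. They were represented by 61 of its 41174 probes, and the probe with the highest mean signal over all 19 arrays was used for each gene. RNA was measured on 1 array per sample in 4 groups. The cells were C2C12, a mouse myoblast line that can be differentiated into myotubes, analysed as myoblasts. The 6 control arrays (labelled WT) came from cells stably transfected with empty plasmids, and the 6 HDAC4&5 arrays from cells stably transfected with plasmids for wild-type human HDAC4 and HDAC5, class IIa histone deacetylases that repress MEF2 transcription factors. Both were selected in hygromycin and geneticin at 500 µg/mL and harvested 48 h after seeding. The muscle was the soleus, a slow oxidative muscle of the calf, of male C57BL6J mice aged 12 weeks and fasted for 5 h. The 3 control arrays (Con) came from heterozygous db -/+ mice, so the controls carried the db allele of the leptin receptor as well, and the 4 db arrays from obese homozygous db +/+ mice, which lack its long signalling form throughout life. The study's methods define a cell replicate as a separate culture dish or well, but they state fewer replicates per group for the transcriptomics than there are arrays of the C2C12 groups and of db muscle. How the arrays map to dishes, to stable lines or, in db muscle, to that number of mice is not given in the sources used here, so p-values measure the spread between these arrays, part of which may be technical. Whole muscle also holds vessels, fat, nerve and connective tissue, and fewer cells of a type cannot be told apart from less RNA per cell.

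Skeletal muscle takes up fatty acids released from lipoproteins at the capillary wall by lipoprotein lipase, moves them across the plasma membrane with transporters such as CD36, and binds them in the cytosol. Acyl-CoA synthetases activate them, after which they are either esterified into triglyceride droplets or passed to the carnitine shuttle, whose first enzyme, CPT1, is inhibited by malonyl-CoA. Inside mitochondria they are shortened by the β-oxidation spiral, which hands electrons to the respiratory chain through electron transfer flavoprotein. Many of these genes are transcribed under the control of the PPAR and ERR nuclear receptors.

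The DNA just upstream of 5 of the genes is shown for the members whose transcripts the results below turn on most, among those with a sequence in the RefSeq promoter table used (GRCm38.p6). Fabp3, Ucp2 and Acadm fell in HDAC4&5 cells, Cpt1a was among the members that rose, and Slc25a20 was 1 of the 2 that passed an unadjusted p in db soleus. Each sequence is the 250 bases before the annotated start, 5′ to 3′ along the gene. The windows lie at chr4:130308488-130308737 on the plus strand (Fabp3), chr7:100493108-100493357 plus (Ucp2), chr3:153944644-153944893 minus (Acadm), chr19:3323051-3323300 plus (Cpt1a) and chr9:108661886-108662135 plus (Slc25a20). Capitals mark matches, on either strand, to the letters AGGTCA (a nuclear receptor hexamer), TNAAGGTCA (its extended form, which contains AGGTCA), CTA followed after any 4 bases by TAG (a MEF2 core), CAGCTG (an E-box of the myogenic factors), CCAAT and GGGCGG (a GC box).
Fabp3: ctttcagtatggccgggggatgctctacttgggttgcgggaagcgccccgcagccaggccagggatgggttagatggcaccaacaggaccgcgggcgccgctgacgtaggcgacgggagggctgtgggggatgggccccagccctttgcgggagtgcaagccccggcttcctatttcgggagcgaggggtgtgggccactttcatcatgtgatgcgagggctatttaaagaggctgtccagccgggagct
Ucp2: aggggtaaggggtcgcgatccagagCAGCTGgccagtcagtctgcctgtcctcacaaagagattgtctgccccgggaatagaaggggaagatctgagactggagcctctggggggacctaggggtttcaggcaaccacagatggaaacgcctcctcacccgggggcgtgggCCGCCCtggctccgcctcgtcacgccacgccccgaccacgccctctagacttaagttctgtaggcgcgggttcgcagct
Acadm: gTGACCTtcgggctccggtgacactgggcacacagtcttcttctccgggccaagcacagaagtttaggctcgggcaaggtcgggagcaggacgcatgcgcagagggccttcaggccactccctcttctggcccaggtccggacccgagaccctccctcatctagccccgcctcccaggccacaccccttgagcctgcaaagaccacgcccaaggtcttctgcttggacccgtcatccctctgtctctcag
Cpt1a: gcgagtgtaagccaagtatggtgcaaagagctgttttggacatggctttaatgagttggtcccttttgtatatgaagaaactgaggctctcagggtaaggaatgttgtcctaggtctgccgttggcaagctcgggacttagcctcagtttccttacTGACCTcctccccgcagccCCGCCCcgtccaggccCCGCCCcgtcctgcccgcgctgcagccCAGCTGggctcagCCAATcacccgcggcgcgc
Slc25a20: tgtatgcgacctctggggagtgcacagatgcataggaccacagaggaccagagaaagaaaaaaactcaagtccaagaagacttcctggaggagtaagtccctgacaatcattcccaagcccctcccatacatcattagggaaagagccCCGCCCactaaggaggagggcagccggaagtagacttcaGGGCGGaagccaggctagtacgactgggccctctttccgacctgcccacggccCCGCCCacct

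The Fabp3 window held none of these letters and the Acadm window held AGGTCA alone, whereas the Cpt1a window held the hexamer, the E-box, the CCAAT box and 2 GC boxes. Ucp2 had CAGCTG and a GC box and Slc25a20 had 3 GC boxes. Windows were found for 30 of the 39 members and not for Scd1, Dgat1, Cpt1b, Decr1, Dgat2, Acaa2, Scd2, Angptl4 and Lpl. A gene with several windows counted once if any of them held the letters. AGGTCA was present for 7 of the 30 members (23.3%) and for 15.8% of all 27025 genes with a window. CAGCTG was present in 7 (23.3%, against 14.7% of all genes), CCAAT in 16 (53.3%, against 37.5%) and GGGCGG in 19 (63.3%, against 35.4%). The MEF2 core was present for none of the 30 members and for 3.7% of all genes, and TNAAGGTCA for none and for 1.3%. A match is a description of the letters in a short window, and these windows reach no distant element.

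Levels are given throughout as log2 of the processed signal minus log2 of the 75th percentile of that array, so a level of 0 is the signal of a probe brighter than 75% of the probes. Levels of different genes rest on different probes and were not set against each other. The 75th percentile was 564 to 1691 signal units on control C2C12 arrays, 494 to 873 on HDAC4&5 arrays, 153 to 555 on Con arrays and 180 to 686 on db arrays. Arrays of a group correlated at 0.98 or more in cells and 0.921 or more in soleus. The number of arrays limits the precision in every comparison. Members well above background, by the scanner software's own test, on every array of a group numbered 36 in control cells, 32 in HDAC4&5 cells, 39 in Con and 37 in db muscle. In soleus the scanner saturated on many members on slide 2, which held Con 3, db 3 and db 4 (15, 19 and 16 of the 39 members), and on only 1 or 2 members on each slide 1 array. Saturated spots were kept, and a saturated level is a lower limit.

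In HDAC4&5 cells the fatty acid genes moved in both directions. Transcripts for lipoprotein lipase (Lpl), the muscle fatty acid binding protein (Fabp3), stearoyl-CoA desaturase (Scd1), medium-chain acyl-CoA dehydrogenase (Acadm) and the triglyceride-forming enzyme Dgat2 fell by 1.59 to 4.90 on the log2 scale. The mitochondrial carrier Ucp2 fell as well. The size of the Ucp2 and Fabp3 falls depended on the background correction, and the Fabp3 call was lost with an outlier spot kept. Transcripts for the transporter Slc27a1, the synthetase Acsl1 and the carnitine shuttle enzyme Cpt1a rose by 1.37 to 1.57. Of the 35 members that could be tested, 8 rose and 17 fell at an adjusted p of 0.05 (limma with Benjamini-Hochberg adjustment over all genes tested) and 10 did not pass. The same test called 69.2% of the 14007 genes tested, 36.4% higher and 32.8% lower, so the members' share of 25 of 35 (71.4%) was near that of all genes. The median difference of the 35 members was -0.11, beside 0.05 for all genes. Under the authors' own scaling of the arrays the median of all genes was -0.12 and that of the members -0.29.

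**Figure D1:**
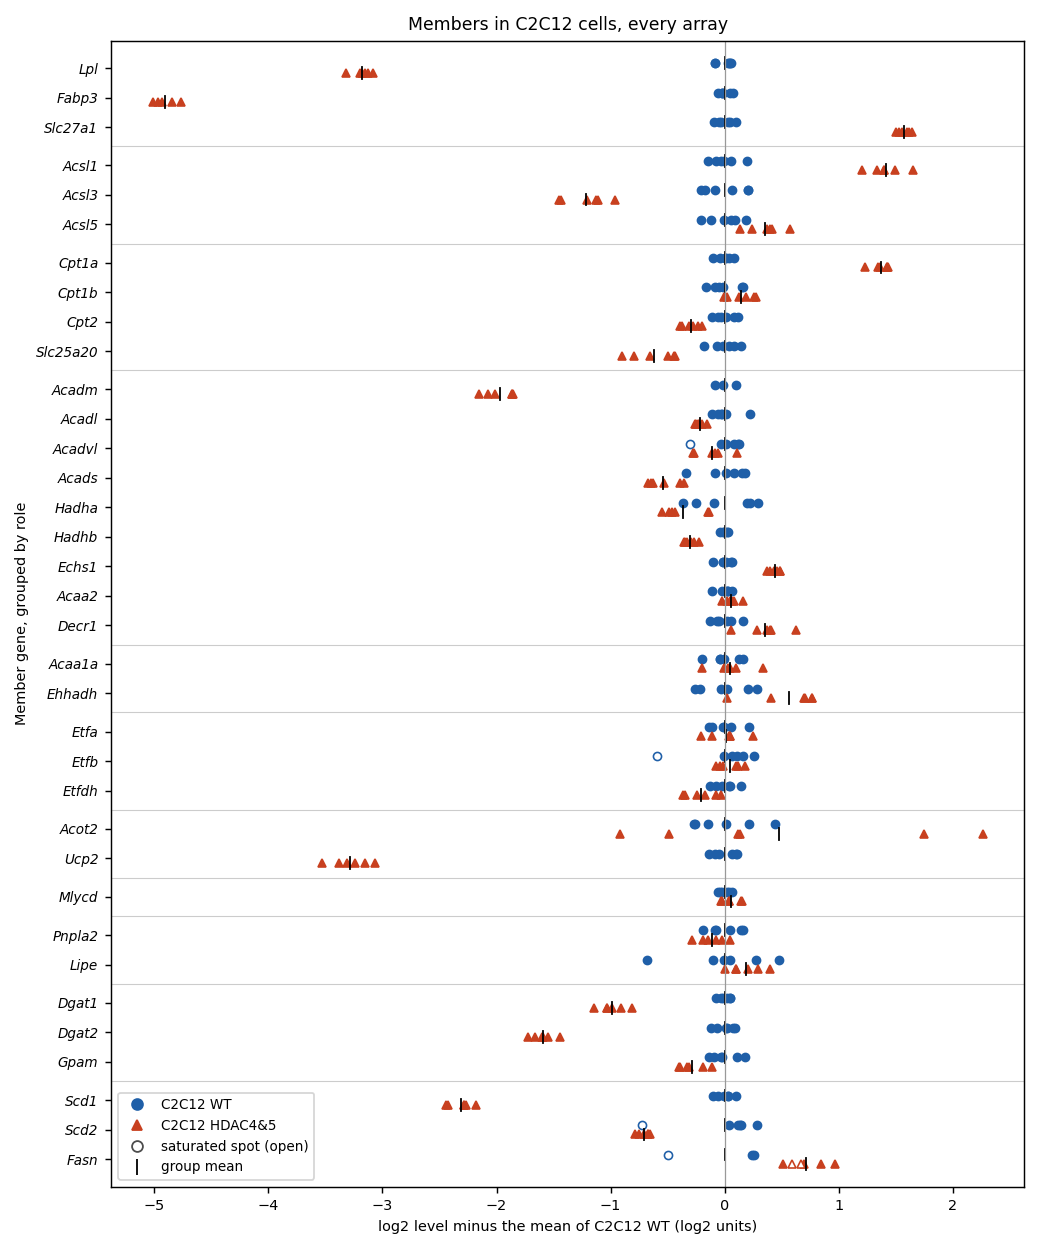
Level of each member on every C2C12 array, as log2 difference from the mean of the control arrays (horizontal axis), with members grouped by role; circles are the 6 control arrays, triangles the 6 HDAC4&5 arrays, open symbols saturated spots and black bars group means. Fabp3 and Lpl lie far to the left (means -4.90 and -3.18), as does Ucp2, whose HDAC4&5 signal was well above background on 2 of 6 arrays, and Slc27a1, Acsl1 and Cpt1a furthest to the right among the members tested (1.57, 1.42 and 1.37).

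All 3 uptake genes that could be tested changed, and not in the same direction. Lpl, which frees fatty acids from circulating triglyceride, had levels of 2.36, 2.47 and 2.50 (lowest, median and highest of 6 arrays) in control cells and -0.88, -0.72 and -0.64 in HDAC4&5 cells. The groups were far apart, a difference of -3.18 ± 0.05 (SE), or 9.05-fold lower (adjusted p = 1.6e-14). Fabp3, which carries fatty acids through the cytosol of muscle and heart, went from -0.20, -0.16 and -0.07 to -5.16, -5.08 and -4.91 (5 arrays), a difference of -4.90 ± 0.05 (adjusted p = 5.62e-15). The scanner software had marked the Fabp3 spot of HDAC4&5 replicate 4 as an outlier. That spot lay at 4.86, above every control array, and with it kept the difference was -3.25 and no longer passed (adjusted p = 0.0702). With background fitted by another model, normexp, the Fabp3 difference was -3.07. The Fabp3 spot of HDAC4&5 replicate 3, at -5.16, was not well above background. Slc27a1 (FATP1), a transporter with acyl-CoA synthetase activity, had control levels of 0.87, 0.96 and 1.06 and HDAC4&5 levels of 2.46, 2.54 and 2.60. It was 2.97-fold higher (difference 1.57 ± 0.05, adjusted p = 3.74e-12), with no overlap of the groups. Cd36, the main muscle fatty acid translocase, was not tested, since its signal stood well above background on 2 of 6 arrays in control cells and on 0 of 6 in HDAC4&5 cells.

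The 3 long-chain acyl-CoA synthetases, which trap fatty acids as their CoA esters, also differed in direction. Acsl1, the form tied to oxidation in muscle, had control levels of 0.60, 0.73 and 0.94 and HDAC4&5 levels of 1.95, 2.14 and 2.39. Its groups did not overlap, and it was 2.67-fold higher (difference 1.42 ± 0.08, adjusted p = 2.41e-09). Acsl3, a form of lipid droplets and the endoplasmic reticulum, fell by 1.21 ± 0.10 (adjusted p = 2.45e-07), from 1.79, 1.98 and 2.20 to 0.55, 0.83 and 1.04. Acsl5 rose by 0.35 ± 0.08, with overlapping groups.

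In the carnitine shuttle the CPT1 isoforms could be read separately. Cpt1a, the isoform of liver and undifferentiated cells, had levels of 1.21, 1.31 and 1.39 in control cells and 2.54, 2.70 and 2.74 in HDAC4&5 cells. It was 2.59-fold higher (difference 1.37 ± 0.05, adjusted p = 3.25e-11). Cpt1b, the isoform of adult muscle, lay at -3.65, -3.52 and -3.33 in control cells and at -3.49, -3.33 and -3.21 in HDAC4&5 cells. These groups overlapped, and the difference of 0.14 ± 0.07 (95% interval -0.01 to 0.30) did not pass (adjusted p = 0.0961), although it did with slide as a block (0.14, adjusted p = 0.0321), within slide 1 (0.33) and with its probes averaged (0.33). On the authors' scaled values it was -0.04. Slc25a20, the carnitine-acylcarnitine carrier of the inner membrane, fell by 0.62 ± 0.09 and Cpt2, which reforms acyl-CoA inside mitochondria, by 0.30 ± 0.05.

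The enzymes of mitochondrial β-oxidation fell more often than they rose, mostly by small amounts. Of 9 tested, Acadm, Acads, Hadha, Hadhb and Acadl fell, Echs1 and Decr1 rose, and Acadvl (difference -0.11) and Acaa2 (0.06) did not pass. Acadm, which opens the oxidation of medium-chain acyl-CoA, had levels of 5.04, 5.11 and 5.23 on the 3 control arrays whose spot was kept and 2.97, 3.19 and 3.27 on the 6 HDAC4&5 arrays. The spots of the other 3 control arrays were marked as outliers. The groups were well apart, a difference of -1.97 ± 0.09, or 3.92-fold lower (adjusted p = 1.28e-08). The other 4 that fell did so by 0.22 (Acadl, long-chain acyl-CoA dehydrogenase) to 0.54 (Acads, short-chain). The trifunctional protein subunits Hadha and Hadhb, which carry out the later steps on long chains, fell by 0.37 and 0.30. Echs1, the short-chain enoyl-CoA hydratase, had levels of 2.91, 3.02 and 3.08 in control cells and 3.39, 3.46 and 3.50 in HDAC4&5 cells, without overlap. Its rise of 0.44 ± 0.04 (adjusted p = 9.54e-07) was 0.26 on the authors' scaled values and did not pass there (adjusted p = 0.12). Decr1, which handles unsaturated fatty acids, rose by 0.35 ± 0.08 with overlapping groups.

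The 2 peroxisomal and 3 electron-transfer members differed by 0.56 or less. Ehhadh, the peroxisomal bifunctional enzyme, rose by 0.56 ± 0.14 with overlapping groups (adjusted p = 0.00317), and Acaa1a, the peroxisomal thiolase, differed by 0.05 and did not pass. The Ehhadh signal was low (means -4.58 and -4.02), and its difference was 0.85, 0.14 and 0.68 within slides 1, 2 and 3. Etfdh, which passes electrons from the flavoprotein to ubiquinone, fell by 0.21 ± 0.07. The flavoprotein subunits Etfa and Etfb differed by 0.01 (95% interval -0.17 to 0.18) and 0.05 (-0.22 to 0.31).

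Ucp2, an inner-membrane carrier found in many tissues, had levels of -2.45, -2.31 and -2.21 in control cells and -5.85, -5.60 and -5.38 in HDAC4&5 cells. Its signal there was well above background on only 2 of 6 arrays. The call held, but the size did not: the difference was -3.29 ± 0.08 (adjusted p = 6.44e-13) with the scanner's own background and -0.98 with normexp (adjusted p = 0.0164). Ucp3, the muscle form, was well above background on no C2C12 array. The thioesterases Acot1 (cytosolic) and Acot2 (mitochondrial), which release free fatty acids from acyl-CoA, are near-identical copies, and cross-hybridisation between their transcripts was not assessed. Acot1 was well above background on no C2C12 array. Acot2 lay at -4.69, -4.49 and -3.98 in control cells and at -5.34, -4.30 and -2.16 in HDAC4&5 cells, where replicates 3 and 4, both on slide 2, were high. The difference of 0.48 ± 0.48 did not pass overall and was 1.78 within slide 2 (adjusted p = 0.00648) and -0.50 within slide 3.

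Of the regulators, Mlycd, which degrades malonyl-CoA, differed by 0.06 ± 0.05 and did not pass. Angptl4, a secreted inhibitor of lipoprotein lipase, was well above background on all 12 C2C12 arrays, but its spots were marked as outliers on 2 control and all 6 HDAC4&5 arrays, so it could not be tested. With those spots kept its levels were 5.14, 5.22 and 5.27 in control cells and 5.75, 5.84 and 5.96 in HDAC4&5 cells, a difference of 0.63 ± 0.05 (adjusted p = 7.6e-08). The lipases of stored triglyceride, Pnpla2 (ATGL) and Lipe (hormone-sensitive lipase), differed by -0.11 (95% interval -0.27 to 0.06) and 0.19 (-0.16 to 0.53) and did not pass.

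All 3 genes of triglyceride synthesis fell. Dgat2, which joins the last acyl chain to diacylglycerol, went from 1.73, 1.86 and 1.94 to 0.13, 0.26 and 0.41, a difference of -1.59 ± 0.06 (adjusted p = 2.9e-11). Dgat1, an unrelated enzyme for the same step, went from 1.17, 1.24 and 1.29 to 0.10, 0.23 and 0.43, a difference of -0.98 ± 0.06 (adjusted p = 3.48e-09). Neither pair of groups overlapped. Gpam, the mitochondrial enzyme of the first step, fell by 0.29 ± 0.07.

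The desaturases fell, and the synthase Fasn rose in a call that 4 alternatives lost. Scd1, which makes monounsaturated fatty acids, had levels of 3.81, 3.93 and 4.02 in control cells and 1.47, 1.63 and 1.74 in HDAC4&5 cells, or 4.98-fold lower (difference -2.31 ± 0.06, adjusted p = 8.28e-13). Scd2, an isoform of most tissues outside adult liver, lay at 5.25, 6.10 and 6.26 and at 5.19, 5.28 and 5.32. The control array at 5.25 was replicate 3, whose spot was saturated, and it was the only control array within the HDAC4&5 range. The Scd2 difference was -0.71 ± 0.14 (adjusted p = 0.000507). Fasn, the fatty acid synthase, lay at 5.37, 6.11 and 6.12 on the 3 control arrays kept and at 6.38, 6.55 and 6.83 in HDAC4&5 cells. Its rise of 0.71 ± 0.17 (adjusted p = 0.00408) rested on saturated spots in control replicate 3 and HDAC4&5 replicates 3 and 5. The Fasn call was lost with quantile normalisation (0.16, adjusted p = 0.245), with normexp (0.52, adjusted p = 0.0771), on the authors' scaled values (0.18, adjusted p = 0.362) and within slide 2 (0.72, adjusted p = 0.0976).

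For 11 of the members called in cells the array carried other probes that were measured. These 13 probes all had the sign of the probe used. Markers of the cell state moved with the groups as well. All 6 striated muscle markers (Ckm, Acta1, Myog, Myod1, Des and Cdh15) fell, their summed signal relative to the 75th percentile being 114 to 211 on control arrays and 1.4 to 1.7 on HDAC4&5 arrays, where Ckm and Myod1 were well above background on no array. All 4 fibroblast markers rose (sum 34.7 to 42.5 against 84.1 to 101), and of 6 slow fibre markers 5 fell. Of 8 adipocyte markers 1 could be tested, Fabp4, which rose, and the list's summed signal was 0.0469 to 0.135 on control arrays and 0.118 to 0.246 on HDAC4&5 arrays. Its defining markers Adipoq, Lep, Cidec and Adrb3 were well above background on no C2C12 array. The part of this difference in cell state in the changes of the fatty acid genes was not tested. The mouse Hdac5 probe rose by 1.42 ± 0.27 (adjusted p = 0.000389) and the mouse Hdac4 probe differed by -0.05 and did not pass. The plasmids carry the human sequences.

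A further 74 genes of lipid handling were listed by name. Of the 67 tested in cells, 21 rose and 26 fell, with a median difference of -0.08. The share called (70.1%) was near the 69.2% of all genes, so the counts that follow are a description. The 8 tested regulators all changed, 3 upwards and 5 downwards, and storage and lipolysis genes rose in 7 of 14 and fell in 3. The furthest falls were in Acad10, a member of the acyl-CoA dehydrogenase family (from 1.95, 2.12 and 2.19 to -2.07, -1.93 and -1.74), Slc27a3, an acyl-CoA synthetase of the transporter family, Pdk4, the kinase that spares glucose by blocking pyruvate dehydrogenase (from 0.92, 1.09 and 1.33 to -2.09, -1.73 and -1.53), Acsl6 and the peroxisomal oxidase Acox3. Their differences ran from -4.01 (Acad10) to -2.16 (Acox3). The furthest rises were in Prkaa2, a catalytic subunit of AMP kinase, Acacb, which makes the malonyl-CoA that inhibits CPT1, G0s2, an inhibitor of ATGL, Fabp4, the adipocyte fatty acid binding protein, and Cav1, the caveolar coat protein. Prkaa2 did not rise well above background in any control array and was at least 5.77-fold higher in HDAC4&5 cells. Here the lower bound is the HDAC4&5 mean over the mean, across control arrays, of the higher of the probe's own signal and the dimmest signal well above background. In control cells Acacb was measurable, well above background, on 3 of 6 arrays and Fabp4 on 1. G0s2 rose by 2.22 and Cav1 by 2.13, with no overlap of the groups.

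In soleus of db mice no member passed the adjusted p. All 39 were tested, and the 2 that passed an unadjusted p of 0.05 were Angptl4, which was 12.2-fold lower, and Slc25a20, which was 3.69-fold higher. Over all 12948 genes tested 0.00772% passed the adjusted p (1 gene) and 6.29% the unadjusted p, so the members' share of 2 of 39 (5.13%) was near that of all genes. The groups did not overlap for Acsl3, Slc25a20, Angptl4 and Fasn, 4 of 39, against 10.4% of all genes. The median difference of the 39 members was -0.15, beside -0.02 for all genes, and 14 were positive and 25 negative. For 15 members every slide 2 array was saturated. A saturated level follows mainly the array's 75th percentile, which was higher in db 3 and db 4 (686 and 631) than in Con 3 (555). Saturation thus pulls their slide 2 differences below 0, and its part in the median and the signs was not tested. On the authors' scaled values, of which 4 soleus columns matched no scanner file, the median of all genes was 0.22 and that of the members 0.10. The sign of the members' median thus differed between the 2 sets of values, and in both it lay below the median of all genes. In the limma fit without slide, the 95% intervals of 9 members lay within 1 on either side of 0. Those of the other 30 reached past it, so for most members a 2-fold difference lay within the interval. Arrays of the same slide deviated together, so these intervals include differences between slides.

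**Figure D2:**
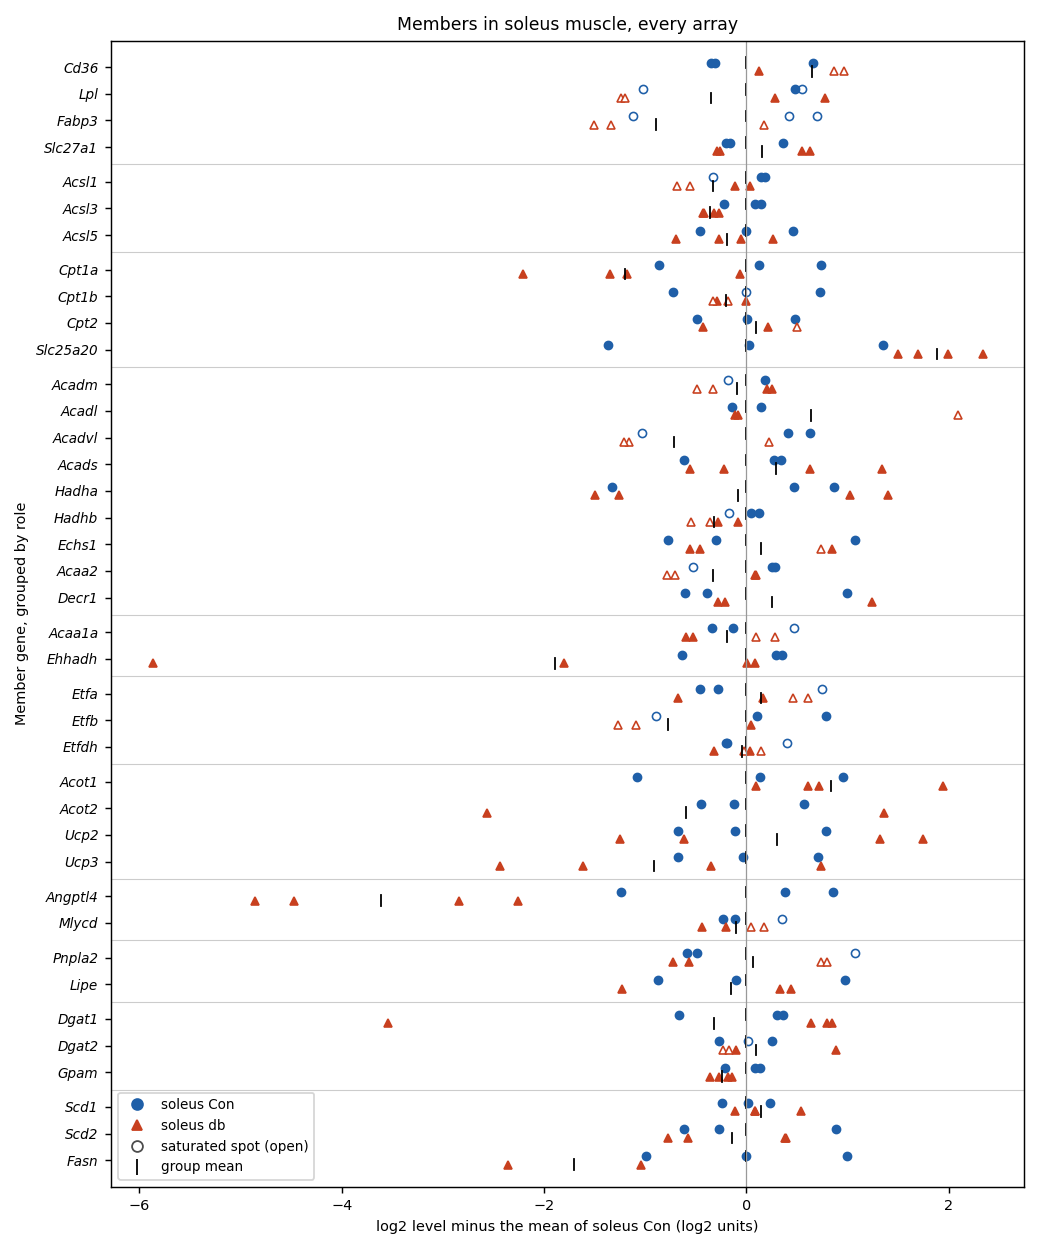
Level of each member on every soleus array, as log2 difference from the mean of the Con arrays (horizontal axis), with members grouped by role; circles are the 3 Con arrays, triangles the 4 db arrays, open symbols saturated spots and black bars group means. Angptl4 lies furthest to the left (mean -3.61) and Slc25a20 furthest to the right (mean 1.88), and for most other members the groups overlap.

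Angptl4 had levels of 6.84, 6.36 and 4.74 in Con 1 to 3 and 1.12, 3.72, 1.51 and 3.14 in db 1 to 4. Every db array was below every Con array, a difference of -3.61 ± 0.76 (SE, unadjusted p = 0.00145, adjusted p = 0.336 in limma). The direction held within slide 1 (-4.18) and within slide 2 (-2.41), and with slide as a block the difference was -3.48 (adjusted p = 0.0983). Slc25a20 had levels of 2.57, 1.17 and 3.89 in Con and 4.24, 4.04, 4.88 and 4.54 in db muscle, a difference of 1.88 ± 0.60 (unadjusted p = 0.0135, adjusted p = 0.61). All db arrays were higher, with Con 3 the nearest to them. The difference was 2.27 within slide 1 and 0.82 within slide 2. Each of these genes was represented by 1 probe, neither was saturated on any soleus array, and no spot of either was left out there.

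With slide as a block 4 members passed the unadjusted p (17.0% of all genes did) and 0.309% of all genes, none of them a member, passed the adjusted p. The added members were Acot1, which was higher by 1.04 (unadjusted p = 0.0265), and Cpt1a, which was lower by 1.02 (unadjusted p = 0.0356). With arrays paired by replicate number in the fit, which leaves db 4 without a partner, 5 members passed (14.8% of all genes did), with Fasn (-1.20), Cpt1a (-1.21) and Ehhadh (-2.53) beside Angptl4 and Slc25a20. Without Con 3 the count was 4 (7.86% of all genes), adding Cpt1a and Fabp3, and without db 2 it was 5 (6.03%), adding Acot2, Cpt1a and Ucp3. Within slide 1 it was 4 (11.4% of all genes), adding Ucp2 (1.19) and Ehhadh (-3.66), and within slide 2 it was 3 (9.17%), adding Acot1 (1.43). The methods' t-test added Acsl3 (-0.36) and the authors' scaled values added Dgat1 (1.17). Angptl4 and Slc25a20 were among the members that passed in every one of these fits.

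**Figure D3:**
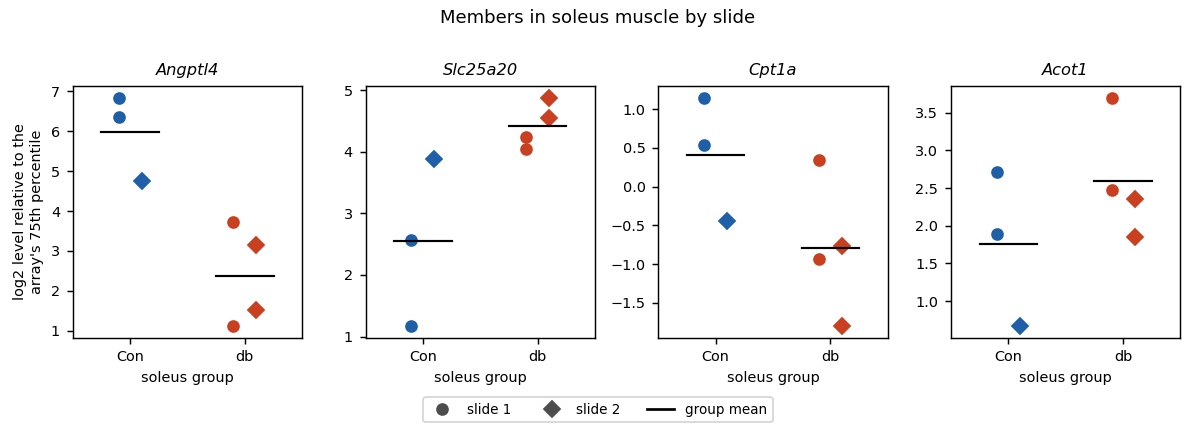
Level of Angptl4, Slc25a20, Cpt1a and Acot1 on each soleus array (vertical axis, log2 relative to the 75th percentile of the array) in Con and db muscle; circles are slide 1 arrays, diamonds slide 2 arrays and lines group means. For Angptl4 and Slc25a20 the db arrays lie apart from the Con arrays, whereas for Cpt1a and Acot1 the groups overlap.

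Of the shuttle isoforms, Cpt1a had levels of 1.15, 0.54 and -0.45 in Con and -0.94, 0.35, -1.80 and -0.77 in db muscle. The groups overlapped through Con 3 and db 2, and the difference was -1.20 ± 0.57 (95% interval -2.51 to 0.11). A second Cpt1a probe, well above background on only 1 of 3 Con arrays, differed by 0.59 in the other direction. Over the members, 19 other probes of 16 genes were measured in soleus and 9 had the sign of the probe used. The other Etfdh probe, for example, differed by 1.98 (-0.04 for the probe used), and those of Acsl1 by 0.76 and 1.30 (-0.33). Cpt1b lay at 6.00, 7.46 and 6.73 in Con and at 6.44, 6.73, 6.40 and 6.55 in db muscle, with the slide 2 spots saturated, a difference of -0.20 (95% interval -1.07 to 0.67).

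For uptake, Cd36 lay at 5.20, 5.24 and 6.20 in Con and at 5.67, 6.41 and 6.51 in db 2, 3 and 4, the last 2 saturated and the spot of db 1 left out as an outlier. The arrays of slide 2 were the highest of each group, and the difference was 0.65 ± 0.42 (95% interval -0.35 to 1.64). Its direction turned with the left-out db 1 spot kept, at 0.22 (difference -0.85), and on the authors' scaled values (-2.39). Fabp3, saturated on every Con array, differed by -0.89 ± 0.65 and Lpl by -0.34 ± 0.64. Fasn had levels of 5.71, 4.72 and 6.70 in Con and 4.67 and 3.35 in db 1 and 2, the spots of db 3 and 4 being left out as outliers. Both db arrays were below the Con arrays, and the difference of -1.70 ± 0.71 (95% interval -3.44 to 0.04) did not pass. It is a comparison of slide 1 db arrays with Con arrays of both slides, and with slide as a block it was -1.20.

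For several other members 1 array lay far from the rest of its group. Ehhadh lay at 0.50, -0.43 and 0.56 in Con and at -1.59, -5.66, 0.29 and 0.22 in db muscle, and the spot at -5.66 (db 2) was not well above background. Its difference was -1.89 ± 1.34. Dgat1 lay at 0.37, -0.66 and 0.31 in Con and at 0.64, 0.85 and 0.80 in db 2, 3 and 4, but at -3.54, not well above background, in db 1. Dgat2 lay at 6.50, 7.03 and 6.79 in Con and at 7.66, 6.67, 6.54 and 6.60 in db muscle. Its slide 2 spots (Con 3, db 3 and db 4) were saturated, so those levels are lower limits. Among the slide 1 arrays db 1 was the highest. Acot2 lay at 0.79, 0.09 and -0.23 in Con and at -2.35 and 1.58 in db 1 and 2, the others being left out. Acot1 lay at 2.71, 1.89 and 0.67 in Con and at 2.47, 3.70, 2.36 and 1.85 in db muscle, a difference of 0.84 ± 0.59 with overlapping groups. None of these differences passed, and those of Dgat1, Dgat2 and Acot2 changed sign without db 1 (0.75, -0.17 and 1.36).

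The uncoupling protein and desaturase pairs did not pass either. Ucp2 lay at -1.0, -1.90 and -2.47 in Con and at -0.05, -0.47, -3.04 and -2.41 in db muscle, so the 2 slides differed more than the 2 groups. Ucp3 lay at 1.1, 0.36 and -0.28 and at -1.22, 1.13, -2.04 and 0.04. Scd1 was even across arrays, at 3.73, 3.51 and 3.25 in Con and 4.04, 3.58, 3.58 and 3.38 in db muscle (difference 0.15, 95% interval -0.52 to 0.81). Scd2 lay at 1.86, 2.21 and 3.36 and at 1.90, 1.70, 2.86 and 2.87. Slide 2 arrays were the higher ones for Scd2 in both groups. The remaining members differed by between -0.78 (Etfb) and 0.64 (Acadl), with the bright β-oxidation genes saturated on slide 2. The Acadl spots of Con 3 and db 4 were left out, so its only slide 2 array was db 3, saturated at 6.71. Within slide 1 and with slide as a block the Acadl difference was -0.09. With slide as a block that of Etfb was -0.35.

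Among the other 74 lipid genes 71 were tested in soleus, none passed the adjusted p and 1 the unadjusted p. That was Agpat2, an acyltransferase of triglyceride synthesis, at 0.13, -0.74 and 0.83 in Con and 0.35, 1.24, 1.68 and 1.72 in db muscle (difference 1.17 ± 0.49, unadjusted p = 0.0422, adjusted p = 0.778). The groups overlapped through Con 3 and db 1. Pdk4 was singled out after its values were seen, since it passed within slide 1 (difference -12.43, adjusted p = 0.0135). It lay at 8.06, 8.08 and 6.28 in Con and at 6.39 and 6.64 in db 3 and 4, but at -4.37, not well above background, in db 1, and the spot of db 2 was left out, so that value rests on db 1 alone.

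Markers of other cell types differed between the soleus groups too, and their part in the values of Angptl4 and the other members was not tested. The summed signal of 4 fibroblast markers was 229 to 355 in Con and 91.4 to 197 in db muscle, that of 4 endothelial markers 12.9 to 21.9 and 5.92 to 12.3, and that of 4 erythrocyte markers 164 to 370 and 90.3 to 157, without overlap. At an unadjusted p, Col1a1 (-1.43), the endothelial Cdh5 (-1.06) and Kdr (-1.10) and the globin Hbb-b1 (-1.74) were lower in db muscle. The fibroblast markers Pdgfra (0.27) and Dpt (0.37) differed the other way and did not pass. The endothelial Pecam1 and Tek each differed by -0.20 and did not pass. Adipocyte markers summed to 224 to 439 in Con and 169 to 310 in db muscle, but went both ways. Lep (3.62, unadjusted p = 2.12e-05) and Cidec (1.19) were higher in db muscle and Cfd (-1.91) was lower, and Adrb3 was well above background on no soleus array. None of these passed the adjusted p in the fit without slide. With slide as a block Lep (3.66, adjusted p = 0.0256) and Hbb-b1 (-1.79, adjusted p = 0.0272) passed it in limma, and the other markers named so far did not. Slow fibre markers, all 6 well above background on every array, summed to 816 to 2220 and 672 to 1870, and none of the 6 passed the unadjusted p. Myl2 (-0.82), Tnnt1 (-0.65), Myl3 (-0.60) and Myh7 (-0.40) had negative differences, and Tnni1 and Tnnc1 each differed by 0.06. All 8 fast fibre markers had negative differences (sum 967 to 3040 in Con and 668 to 2290 in db muscle), of which Myh4 (-3.11, unadjusted p = 0.0124) passed the unadjusted p and Pvalb (-1.92) did not. With slide as a block Myh4 was at -3.06 and Pvalb at -2.15, whereas Tnni2 went from -0.97 to -0.41 and Tnnc2 from -0.68 to -0.28. Macrophage markers summed to 3.77 to 13.2 and 6.34 to 18.3, with Csf1r higher by 0.98 (unadjusted p = 0.0435). Cd163 (1.35), Cd68 (0.12) and Emr1 (-0.05) did not pass the unadjusted p.

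**Figure D4:**
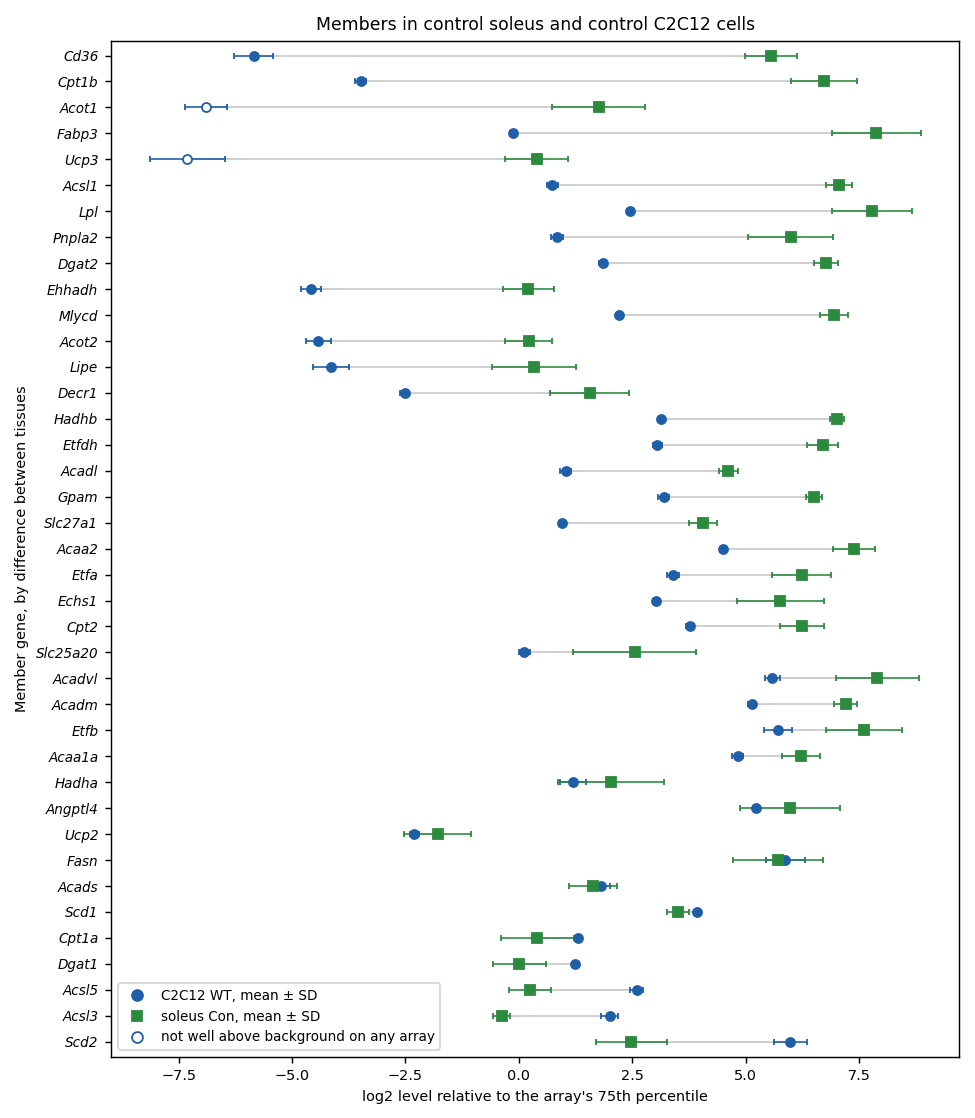
Mean level ± SD of each member in control C2C12 cells (n = 6 arrays, fewer where spots were left out) and Con soleus (n = 3), in log2 relative to the 75th percentile of the array (horizontal axis), ordered by the difference; open symbols were well above background on no array of the group. Cd36, Cpt1b, Acot1, Fabp3 and Ucp3 stand far apart, with no order between them since Acot1, Ucp3 and most Cd36 signals in cells were not well above background and Fabp3 was saturated in soleus, and Scd2, Acsl3 and Acsl5 are the members furthest below their C2C12 level in soleus.

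Control soleus and control C2C12 cells were hybridised on different slides, so tissue and slide cannot be told apart, and their levels are given as a description with no test. In soleus 28 members were higher without overlap (35.1% of all 14925 genes were), 6 were lower without overlap (35.6% of all genes) and 5 overlapped. The median difference was 2.88 over the members and -0.02 over all genes. Cpt1b, the muscle isoform of the shuttle enzyme, was at -3.49 ± 0.13 (SD, n = 6) in control cells and 6.73 ± 0.73 (n = 3) in Con soleus, whereas Cpt1a went the other way, from 1.31 ± 0.06 to 0.41 ± 0.81. Cd36 differed by 11.39, being well above background on 2 of 6 control C2C12 arrays, and Fabp3 by 8.02, with all 3 soleus spots saturated. Acot1 was at least 177-fold and Ucp3 at least 68.8-fold higher in soleus, both well above background on no C2C12 array.

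By role, the 4 uptake genes were all higher in soleus (median 6.68), as were the lipases Pnpla2 and Lipe (median 4.81) and the 3 electron-transfer genes (median 2.85). Of 9 mitochondrial β-oxidation genes 7 were higher, and Acads and Hadha overlapped. The 6 members that were lower were Scd2 (-3.50), Acsl3 (-2.38), Acsl5 (-2.35), Dgat1 (-1.23), Cpt1a (-0.89) and Scd1 (-0.42), and of the fatty acid synthesis and desaturation genes (Scd1, Scd2 and Fasn) none was higher without overlap. Isoforms of 1 step therefore differed in direction for CPT1, for the long-chain synthetases (Acsl1 was higher by 6.32) and for DGAT (Dgat2 was higher by 4.92).

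The cell and muscle comparisons share no arrays. Of the 25 members called in HDAC4&5 cells, 13 had the same sign of difference in db soleus, 3 higher and 10 lower. None of the 25 passed the adjusted p there. The share of same signs over all genes is not given here, so the count is a description only. The Slc25a20 difference was -0.62 in HDAC4&5 cells and 1.88 in db soleus, and Cpt1a was 1.37 higher in HDAC4&5 cells and -1.20 in db soleus. The difference between the comparisons was not tested.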

How the data were processed

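RNA from 12 C2C12 samples and 7 soleus samples (100 ng each) was hybridised to 1-colour Agilent arrays. The authors deposited scanner files from Agilent Feature Extraction 9.5.1.1, whose intensity columns hold mean, background and processed (background-subtracted, not scaled between arrays) signals per spot, and a matrix of the processed intensity as a ratio to 1 constant per array. In the matrix, the column for db replicate 1 held the values of db 3 in the scanner files and the column for db replicate 2 those of db 4, and 4 soleus columns matched no file, so their scale is unknown. The matrix therefore served as an alternative without using replicate numbers. A level is the log2 processed intensity from which the 75th percentile on that array, also in log2, was subtracted. Control spots and outlier spots were left out, saturated spots kept, and spots of a probe averaged. The summed signals of marker lists are an exception, since outlier spots were kept in them. Gene names are those of the C2C12 files, since 3210 probes carried another name in the soleus files.

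A gene was tested where all arrays of 1 or both groups held its probe well above background. Tests used limma 3.58.1 (lmFit, eBayes) in R 4.3.3 with the package data.table (version 1.17.8), and p was adjusted over all genes by Benjamini-Hochberg with a threshold of 0.05. Test scripts were tested on simulated data. Figures used Python 3.11.15 and matplotlib 3.10.9. Members, lists and tests were chosen with earlier results of these data known. Values are given for the furthest rises and falls without overlap in cells, for members past the unadjusted p or furthest apart in soleus, and for the isoform pairs. Same-numbered arrays of the groups deviated together (correlations 0.184 to 0.547 in cells and 0.424 to 0.691 in soleus), as did other arrays of the same slide (0.193 to 0.529 and 0.333 to 0.743), so numbers carried the slide. Alternatives were quantile normalisation, normexp with an offset of 50, no filter or a stricter one, averaged probes, outlier spots kept, saturated spots left out, slide or replicate number as a block, each slide alone, each array left out, the methods' t-test and the authors' matrix. Leaving out saturated spots and leaving out each C2C12 array were chosen after the data were seen. The genome build of the probes is not given in the sources used here, so no probe positions are stated.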

Additional observations from a re-analysis of the deposited data

Results flagged for a closer look

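In 40 groups of 4 or 6 arrays tested for an array far from the others (Dixon's ratio of the gap to the range), 3 arrays stood out, and chance alone gives about 1 in 20 groups. Scd2 in control C2C12 replicate 3 was at 5.25, below the next array at 6.01 (ratio 0.753), and that spot was saturated. Dgat1 in soleus db 1 was at -3.54, below the next array at 0.64 (ratio 0.951), and was not well above background. Dgat2 in the same array was at 7.66, above the next at 6.67 (ratio 0.882). The Dgat2 spots of db 3 and db 4 were saturated, so their levels are lower limits and this ratio is not exact.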

How the results depend on the processing

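In cells the number of members called was 17 to 26 over 26 alternatives (25 as reported), 25 to 26 with each array left out, and the number of other lipid genes called was 34 to 53 (44 to 47 with each array left out). The members' median difference was -0.24 with normexp, -0.29 on the authors' matrix and -0.18 to -0.09 with each array left out. In soleus no member passed the adjusted p in any of 20 alternatives (0 with each array left out), and the median was -0.24 to 0.10, positive with probes averaged (0.06) and on the matrix (0.10), and -0.21 to -0.15 with each array left out. The soleus members past the unadjusted p numbered 4 with slide as a block, 5 with the replicate block, 4 within slide 1 and 2 to 5 with each array left out (4 without Con 3, 5 without db 2). The replicate block, which pairs arrays by number, changed no other call of a member. Of the other lipid genes in cells it added Acaca, Acad9, Acat1 and Agpat2 and lost Lmf1 (50 called against 47). Pdk4 was the 1 other lipid gene that passed in soleus, within slide 1. The median of control soleus over control C2C12 was 2.60 to 2.89 over 6 alternatives. Over the single members named, 643 values kept their direction and side of the threshold, 25 changed sign with neither value past the adjusted p (23 of them in soleus, among them Cd36, Acot2, Dgat1, Dgat2, Scd2 and Ucp2), 7 no longer passed (4 for Fasn, the others for Fabp3 with outlier spots kept, Echs1 on the matrix and Scd2 within slide 2, at -0.42, adjusted p = 0.306) and 4 newly passed (3 for Cpt1b and Acot2 within slide 2). No value past the adjusted p changed sign. The causes were not tested. Signal over background limits Cd36, Fabp3, Ucp2, Ucp3, Acot1 and Acot2 in cells, and saturation limits the bright members on slide 2 of soleus.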
